A study of Homo sapiens with 60 samples.

Results

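The comparison described here is between drug-tolerant persister (DTP) cells of the line HCC827 and the same line after acute osimertinib, 6 of the 60 RNA-Seq libraries of the study. The libraries were chosen by their labels alone: replicates 1 to 3 of HCC827 under osimertinib for 21 days (DTP) and replicates 1 to 3 under osimertinib for 24 h (acute). HCC827 is an established cell line from a human lung adenocarcinoma, an epithelial tumour of the lung, whose EGFR gene carries an activating deletion. Osimertinib is an irreversible inhibitor of the epidermal growth factor receptor EGFR and was given at 500 nM in both groups. The study sequenced 4 EGFR-mutant lung cancer lines in 5 arms with 3 replicates each. Besides acute and DTP, the arms were the vehicle DMSO for 24 h, a short washout of 24 h without drug after the DTP stage, and a long washout, which lasted 96 h in HCC827 and ended when exponential growth had resumed. Acute and DMSO cultures were parental cells kept without drug for 21 days beforehand, so that time in culture was matched and time on drug was not. Both groups carried osimertinib at harvest, and the comparison therefore asks what 3 weeks of drug added to the response of the first day. The DTP libraries hold whatever cells were alive at the end of treatment in 1 cell line, and in such bulk samples a change within every cell and a changed mixture of cells cannot be told apart, nor can fewer cells of a kind and less RNA per cell.

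EGFR signals through RAS and RAF to the kinase ERK, which switches on its own brakes (the DUSP phosphatases and the SPRY and SPRED proteins), the ETS factors ETV1, ETV4 and ETV5, and cyclin D1. Cyclin D with CDK4 and CDK6 inactivates RB, which frees E2F factors to transcribe the genes of DNA replication, so that an EGFR inhibitor stops the cycle of EGFR-dependent cells before S phase. Persisters are cells that live through a targeted drug in a slow-cycling and reversible state, and in lung adenocarcinoma such states have often been described beside a loss of epithelial traits. In the epithelial-mesenchymal transition, ZEB1 and ZEB2 repress CDH1, the gene of the adhesion protein E-cadherin, and the splicing regulators ESRP1 and ESRP2, while vimentin, fibronectin and collagens appear.

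The 6 libraries held between 17.7 and 22.2 M estimated counts. Acute libraries resembled each other closely, with correlations of 0.989 to 0.991 across genes on the log2 scale, and DTP libraries less so, with 0.972 to 0.985. DTP replicate 1 lay closest to the acute libraries: over the genes called below, its mean absolute log2 distance from the acute mean was 0.80, against 0.954 in DTP replicate 2 and 1.04 in DTP replicate 3. The short washout libraries had the same order, with 0.824, 0.930 and 1.05. Transcripts that mark the other 3 lines gave no sign of mixing for PC9 and H1975 (14 and 6 genes, at most 0.256% of the level in those lines), while 7 genes that mark HCC2935 were at up to 1.03%, in DTP replicate 1. EGFR, the drug's target and amplified in this line, was at 7156, 7594 and 8204 CPM (counts scaled to library size by TMM) in the acute libraries and at 5294, 5383 and 5456 CPM in the DTP libraries, replicates 1 to 3 in order here and throughout. All 3 DTP libraries were below all acute libraries, a log2 fold change of -0.5 (standard error 0.09, adjusted p = 0.0060).

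Of 14083 genes tested, 4156 (29.5%) differed between DTP and acute at an adjusted p under 0.05 by edgeR's quasi-likelihood test, 2211 (15.7%) higher and 1945 (13.8%) lower in DTP, with a median log2 fold change over all genes of 0.000546. Of these, 1626 differed at least 2-fold, 1013 higher and 613 lower. The 3 DTP and 3 acute libraries did not overlap for 47.1% of the genes. The count moved with the libraries entered. It fell by a similar amount without any 1 acute library, to 2328, 2442 and 2576 without acute replicate 1, 2 and 3, where fewer libraries enter the fit. It was 3163 without DTP replicate 2 and 2821 without DTP replicate 3, and rose to 5237 without DTP replicate 1. For that reason genes are described below by their 6 values, and a gene whose call was lost when 1 library was left out is said to be so. Standard errors and adjusted p-values come from the same test throughout. For each gene list below, the counts called are to be read beside the shares over all genes, 15.7% higher and 13.8% lower. Counts near these shares are not a result about the list. Against DMSO, 5817 of 13746 genes (42.3%; 20.2% higher and 22.1% lower) changed in acute cells and 5104 of 13919 genes (36.7%; 19.4% higher and 17.2% lower) in DTPs. Of the acute calls 2780 were higher and 3037 lower, against 3406 and 2474 when scaled by library size only and 3183 and 2475 by limma on the deposited log2 TPM. Both of these share libraries with the main comparison, so that their values are set beside it and not tested against it.

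Transcripts that depend on ERK were higher in DTPs than in acutely treated cells, although the drug was present in both. Of 20 genes listed as ERK output, 12 were called higher and 0 lower (median log2 fold change 0.89), and the count stayed at 11 or 12 when single libraries were left out. After 24 h of drug 14 of the 20 had been lower than in DMSO and 0 higher (median -1.41). In DTPs 8 were lower than in DMSO and 2, DUSP4 and EPHA4, higher (median -0.57). DUSP6, the phosphatase that switches ERK off, was at 1.17, 0.812 and 3.75 CPM in acute and 10.7, 26.1 and 9.88 CPM in DTP libraries, beside 17.6, 21.8 and 21.4 CPM under DMSO. DTP and acute libraries did not overlap, DTP replicate 2 stood above all DMSO libraries, and the log2 fold change was 3.02 (standard error 0.61, adjusted p = 0.0094). SPRY4, an inhibitor of the same pathway, was at 0.168, 0.335 and 0.703 CPM in acute and 4.81, 4.18 and 2.68 CPM in DTP, a log2 fold change of 3.24 (standard error 0.53, adjusted p = 0.0040). ETV1, an ETS factor that ERK signalling induces, went from 0.168, 0.956 and 0.375 CPM in acute to 8.81, 5.44 and 3.97 CPM in DTP (log2 fold change 3.58, standard error 0.59, adjusted p = 0.00418). Acute values of SPRY4 and ETV1 were below 1 CPM, and their DTP values lay below all DMSO values, which were 5.02, 11.8 and 6.62 CPM for SPRY4 and 13.5, 9.17 and 8.85 CPM for ETV1.

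The ETS factors ETV4 and ETV5 followed the same course with log2 fold changes of 2.1 and 2.0 (adjusted p = 0.0075 and 0.0118), and both stayed below DMSO (-1.41 and -1.29 against it). FOSL1, a subunit of the transcription factor AP-1, was at 29, 35.2 and 55.8 CPM in acute and 94.8, 146 and 124 CPM in DTP libraries (log2 fold change 1.61, standard error 0.25, adjusted p = 0.00347). DUSP4, which removes phosphate from ERK in the nucleus, was at 10.1, 9.03 and 12.8 CPM in acute, 50.6, 42 and 34.8 CPM in DTP and 14.9, 20.9 and 14.6 CPM in DMSO libraries, so that each DTP library exceeded each library of both other groups. EPHA4, an ephrin receptor, behaved alike, with 6.88, 3.44 and 7.69 CPM in acute and 20.9, 31.8 and 45.9 CPM in DTP, against 4.7, 6.93 and 5.49 CPM in DMSO. Other ERK targets gave no such difference. DUSP5 was at 9.005, 10.3 and 14.9 CPM in acute and 10.3, 15.6 and 8.77 CPM in DTP, with overlapping values and a log2 fold change of 0.03 (standard error 0.27, adjusted p = 0.946), and PHLDA1 had a log2 fold change of 0.2 (adjusted p = 0.561). EGR1 and FOS, immediate-early genes, varied within each group more than between groups, FOS from 4.21 to 51.4 CPM in acute and from 1.06 to 91.9 CPM in DTP libraries.

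**Figure D1:**
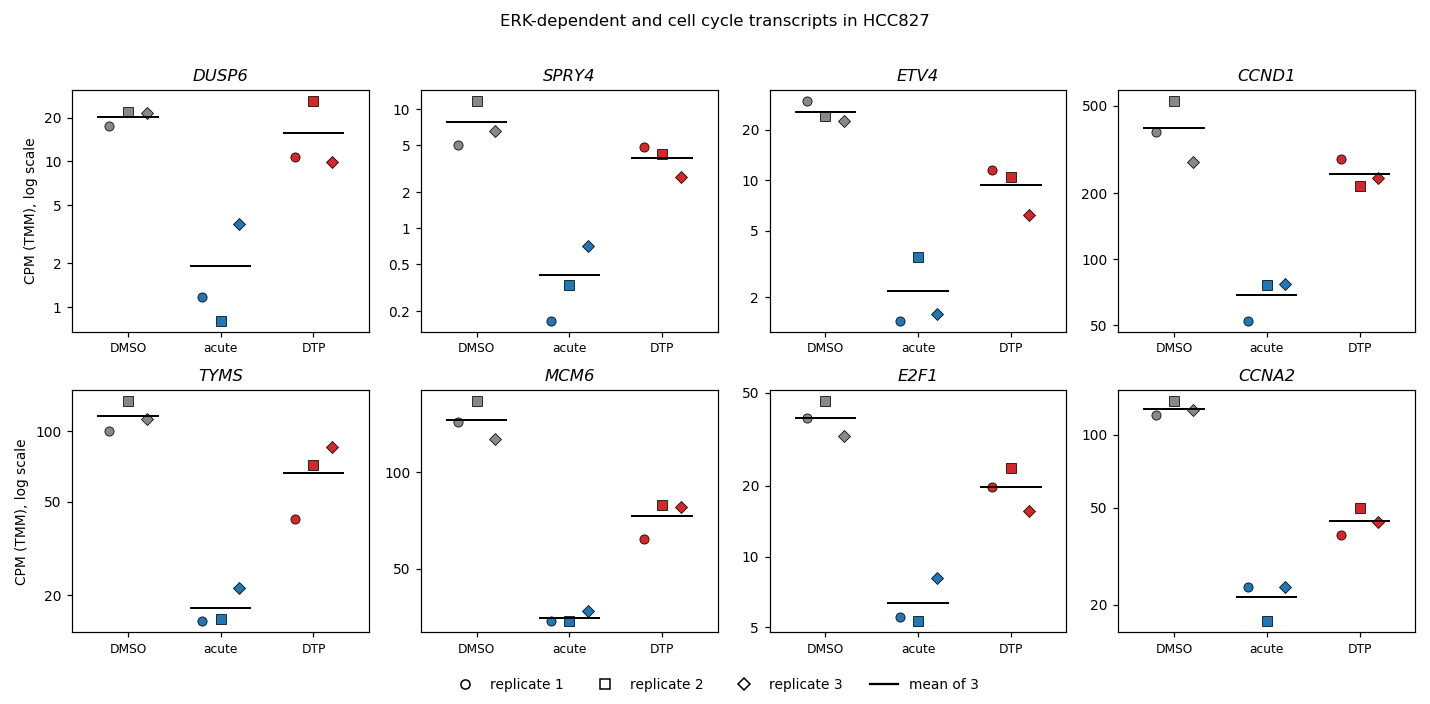
TMM-normalized CPM (log axis) of 4 ERK-dependent genes (top) and 4 cell cycle genes (bottom) in the DMSO, acute and DTP libraries of HCC827, with 1 point per library, its shape the replicate number, and a line at the mean of 3. In each panel the 3 DTP libraries lie above the 3 acute libraries, and for SPRY4, ETV4, TYMS, MCM6, E2F1 and CCNA2 they also lie below the 3 DMSO libraries.

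Genes of the cell cycle stood between acute and DMSO in DTPs. CCND1, which encodes cyclin D1, was at 52.6, 76.6 and 76.7 CPM in acute and 285, 215 and 234 CPM in DTP libraries, a log2 fold change of 1.84 (standard error 0.18, adjusted p = 0.000657), and at 381, 526 and 276 CPM under DMSO. Of 22 genes of DNA replication, 18 were called higher in DTP than in acute and 1 lower, with a median log2 fold change of 0.99, and between 12 and 18 were called higher when single libraries were left out. All 22 had been lower in acute than in DMSO (median -2.18), and 19 remained lower in DTP than in DMSO (median -1.09). TYMS, the enzyme that makes thymidylate for DNA (its gene overlaps ENOSF1 on the other strand and has 2 named pseudogenes), was at 15.5, 15.9 and 21.5 CPM in acute, 42.1, 71.9 and 85.6 CPM in DTP and 101, 134 and 112 CPM in DMSO libraries. Its 3 groups did not overlap, and the log2 fold change of DTP against acute was 1.92 (standard error 0.26, adjusted p = 0.00207). E2F1, itself an E2F factor, was at 5.54, 5.3 and 8.11 CPM in acute and 19.7, 23.8 and 15.6 CPM in DTP (log2 fold change 1.65, standard error 0.23, adjusted p = 0.00245). CDC6 and MCM10, which load and start the replicative helicase, had log2 fold changes of 1.53 and 1.46 (adjusted p = 0.00179 and 0.00946). MCM3, a subunit of that helicase, was at 37.9, 39.2 and 42.5 CPM in acute and 75.5, 77.9 and 67.7 CPM in DTP (log2 fold change 0.89, standard error 0.1, adjusted p = 0.00101). MCM6 was at 34.3, 34.2 and 36.9 CPM in acute and 62, 79 and 77.8 CPM in DTP (log2 fold change 1.06, standard error 0.11, adjusted p = 0.000955). CDT1, which licenses replication origins, was the exception, with 29, 40.6 and 34 CPM in acute and 18.4, 22 and 18.2 CPM in DTP libraries, a log2 fold change of -0.82 (standard error 0.16, adjusted p = 0.0073).

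The promoters of MCM3 and MCM6 are shown as examples of the DNA replication genes that hold letters bound by E2F factors. The letters TTTCCCGC and TTTGGCGC, on either strand, were found in 9 of the 19 DNA replication genes with a promoter in the RefSeq table, 22 being listed, within the 250 bases before the start site, against 2.36% of all 27305 genes of the same table. Of the 9 genes, 7 were called higher in DTP than in acute, CDT1 was called lower and MCM7 was not called (adjusted p = 0.282). The sequences are RefSeq, build GRCh38.p14, from the gene's strand and upstream of the start site, with the motif in capitals. MCM3 is at chr6:52284882-52284992 (minus strand, the 111 bases of the window outside annotated exons) and MCM6 at chr2:135876444-135876693 (minus strand). The letters were searched because textbook targets of E2F factors form this list. The 9 of 19 are therefore a description and not a test. A match describes the letters and is not evidence of binding in these cells.
MCM3: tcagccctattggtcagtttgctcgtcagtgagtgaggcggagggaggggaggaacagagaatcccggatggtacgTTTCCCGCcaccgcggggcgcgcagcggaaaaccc
MCM6: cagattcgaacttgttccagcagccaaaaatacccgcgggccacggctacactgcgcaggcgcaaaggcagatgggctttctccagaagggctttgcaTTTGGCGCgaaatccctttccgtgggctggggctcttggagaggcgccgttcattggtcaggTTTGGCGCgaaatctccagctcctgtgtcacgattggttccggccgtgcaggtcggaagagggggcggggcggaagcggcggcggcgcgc

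Mitotic genes moved in the same direction but less evenly. Of 20 listed, 15 were called higher in DTP than in acute and 0 lower (median 0.83), all 20 had been lower in acute than in DMSO (median -2.27), and all 20 were lower in DTP than in DMSO (median -1.38). The 15 fell to 5 without acute replicate 1, 4 without acute replicate 2, 7 without DTP replicate 2 and 6 without DTP replicate 3, and rose to 18 without DTP replicate 1. MKI67, the proliferation marker Ki-67, was at 119, 72.5 and 111 CPM in acute and 115, 208 and 199 CPM in DTP libraries, beside 447, 539 and 491 CPM in DMSO. Only DTP replicates 2 and 3 exceeded the acute values, and the call, at a log2 fold change of 0.8 (standard error 0.25, adjusted p = 0.0467), was lost without any of the 3 acute libraries, DTP replicate 2 or DTP replicate 3. CDK1, the kinase that drives mitosis, was called in each of those fits (log2 fold change 1.16, standard error 0.24, adjusted p = 0.0107), with 20.7, 13.2 and 21.1 CPM in acute and 31.1, 53.7 and 37.9 CPM in DTP. CCNA2, which encodes cyclin A2, and AURKB, a mitotic kinase, were also called in each of them, with log2 fold changes of 1.05 and 1.1 (adjusted p = 0.00316 and 0.010).

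Epithelial transcripts were lower in DTPs. Of 10 epithelial markers, 8 were called lower in DTP than in acute and 0 higher (median -1.49), with 5 lower without acute replicate 1 or acute replicate 3. Between acute and DMSO 4 had been higher and 2 lower (median 0.04). CDH1 was at 1223, 1356 and 1381 CPM in acute and 493, 215 and 177 CPM in DTP libraries, beside 992, 1126 and 1081 CPM under DMSO. Each DTP library lay under each library of both other groups, DTP replicate 1 by the least, and the mean fell 4.47-fold from 1319.7 ± 85 to 295 ± 173 CPM (SD, n = 3) with a log2 fold change of -2.15 (standard error 0.36, adjusted p = 0.00431). EPCAM, an epithelial surface protein, was at 419, 448 and 437 CPM in acute and 181, 101 and 89 CPM in DTP (log2 fold change -1.8, standard error 0.25, adjusted p = 0.00229). ESRP1 was at 263, 248 and 217 CPM in acute and 99.2, 42.3 and 31.9 CPM in DTP (log2 fold change -2.06, standard error 0.38, adjusted p = 0.0066). ESRP2 had a log2 fold change of -1.16 (adjusted p = 0.00795). The tight junction gene CLDN4 and the epithelial ETS factor ELF3, both higher in acute than in DMSO (0.9 and 0.98), had log2 fold changes of -1.54 and -1.44 between DTP and acute (adjusted p = 0.00217 and 0.00114). OVOL2 and GRHL1, transcription factors that maintain epithelial identity, fell by 2.24 and 1.70 on the log2 scale (adjusted p = 0.00576 and 0.00213). Keratins of simple epithelia, which mark the line as epithelial, were present in all 6 libraries, though not at an unchanged level. KRT18 and KRT19 were among the 8 markers called lower, calls that were lost without acute replicate 1 or acute replicate 3. The 15 listed keratins together were at 7237 to 8762 CPM in acute and 3807 to 6440 CPM in DTP libraries. KRT8 and KRT7 were not called. KRT8 was at 1369, 1051 and 1345 CPM in acute and 949, 900.1 and 1488 CPM in DTP libraries, with overlapping values, and KRT7 at 3594, 2912 and 3469.8 CPM in acute and 2719, 1068 and 1546 CPM in DTP, where the groups did not overlap but the adjusted p was 0.0573. KRT8 has 50 named pseudogenes.

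Mesenchymal transcripts appeared in the same libraries. Of 17 genes of the epithelial-mesenchymal transition tested, the 6 called higher were CDH2, VIM, FN1, ZEB1, ZEB2 and SPARC, and the 7 called lower were CDH1, OVOL1, OVOL2, GRHL1, GRHL2, ESRP1 and ESRP2 (median 0.23, both directions together). Left-out libraries moved the counts to between 6 and 7 and between 5 and 7. ZEB1, a repressor of CDH1, was at 2.35, 3.3 and 4.17 CPM in acute and 17.4, 33.3 and 34.8 CPM in DTP libraries, a log2 fold change of 3.12 (standard error 0.32, adjusted p = 0.000834). Its partner ZEB2 was at 1.23, 1.96 and 1.13 CPM in acute and 20.4, 31.5 and 39.9 CPM in DTP (log2 fold change 4.41, standard error 0.33, adjusted p = 0.000379). In both genes the lowest DTP library was replicate 1, which also kept the most CDH1, EPCAM and ESRP1. VIM, the mesenchymal intermediate filament vimentin, was at 207, 170.5 and 158 CPM in acute and 805, 794 and 1044 CPM in DTP, a 4.93-fold rise (log2 fold change 2.31, standard error 0.15, adjusted p = 0.00028). CDH2, N-cadherin, was at 7.94, 3.73 and 5.72 CPM in acute and 13.1, 50.7 and 51.1 CPM in DTP (log2 fold change 2.74, standard error 0.52, adjusted p = 0.00708), again with replicate 1 lowest. FN1, fibronectin, had already risen under acute drug (1.14 against DMSO) and rose further, from 603 ± 117 to 1821 ± 301 CPM (log2 fold change 1.6, standard error 0.17, adjusted p = 0.000901). Not all inducers of the transition took part. SNAI1 was at 1.85, 1.62 and 2.77 CPM in acute and 0.86, 1.75 and 1.52 CPM in DTP, against 8.67, 10.8 and 9.16 CPM in DMSO, SNAI2 at 37.4, 27.3 and 36 CPM in acute and 40.8, 35.8 and 40.7 CPM in DTP, and neither was called between DTP and acute (adjusted p = 0.32 and 0.247). TWIST1 had too few counts to be tested, with at most 0.437 CPM in any of the 6 libraries.

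**Figure D2:**
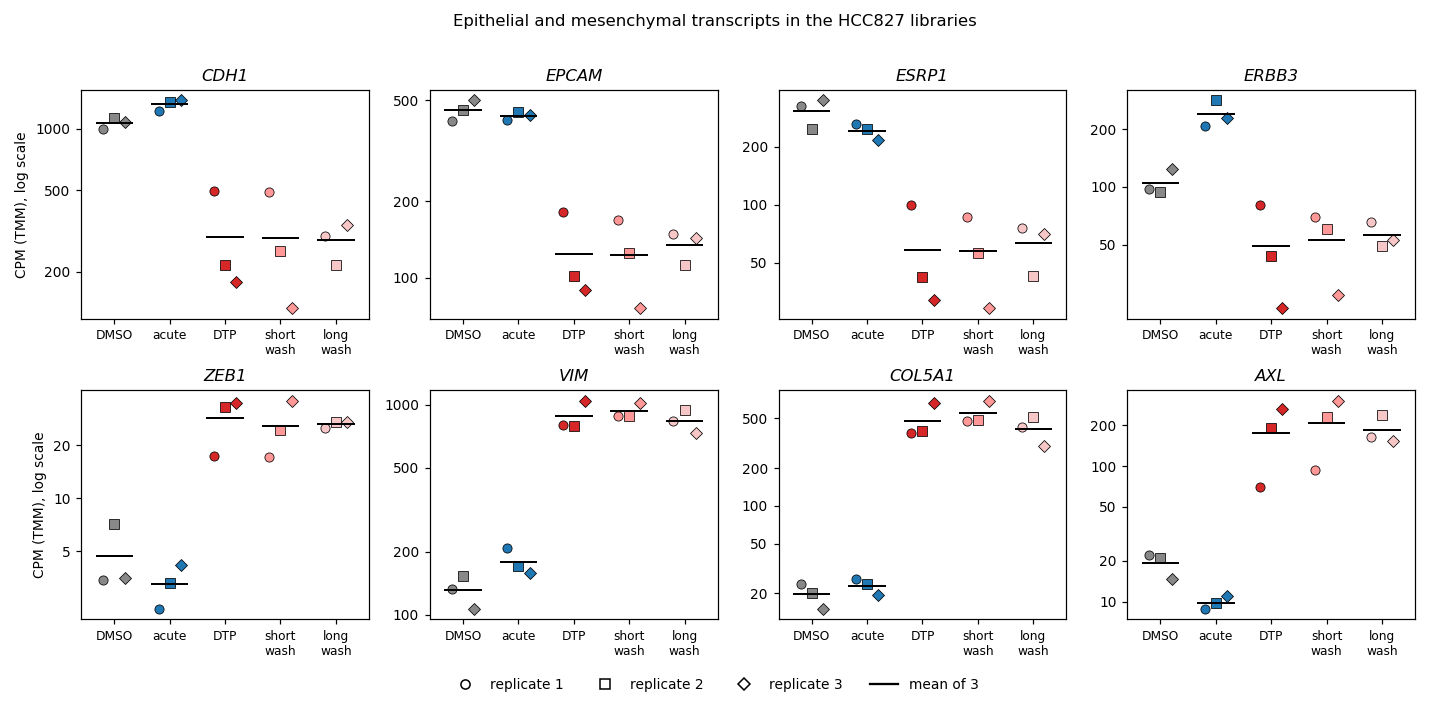
TMM-normalized CPM (log axis) of 4 transcripts that were lower (top) and 4 that were higher (bottom) in DTP than in acute, in all 15 HCC827 libraries, with 1 point per library, its shape the replicate number, and a line at the mean of 3. DTP, short washout and long washout libraries lie apart from the DMSO and acute libraries in all 8 panels, and DTP replicate 1 (circle) is nearest to the acute libraries for CDH1, EPCAM, ESRP1, ERBB3, ZEB1, COL5A1 and AXL.

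Matrix genes rose broadly. Of 23 collagen and matrix genes tested, 15 were called higher in DTP than in acute and 2, COL4A5 and COL17A1, lower (median 1.52), with 13 to 17 higher when single libraries were left out. The 2 called lower were 1 without acute replicate 2 or 3 and 0 without acute replicate 1. COL5A1, a chain of fibrillar collagen V, was at 26.2, 23.8 and 19.4 CPM in acute and 383, 393 and 657 CPM in DTP libraries, a 20.7-fold difference of means (log2 fold change 4.38, standard error 0.25, adjusted p = 0.000147). COL6A1 and COL6A2, chains of the microfibrillar collagen VI, had log2 fold changes of 1.87 and 2.91 (adjusted p = 0.00191 and 0.000795). SPARC, a matrix glycoprotein, was at 1.79, 1.77 and 1.69 CPM in acute and 67.8, 26.1 and 38.4 CPM in DTP (log2 fold change 4.66, standard error 0.38, adjusted p = 0.000454), the highest value this time in DTP replicate 1. COL3A1, of the fibrillar collagens, was at 0.615, 0.0956 and 0.516 CPM in acute and 22.9, 7.33 and 6.32 CPM in DTP (log2 fold change 4.91, standard error 0.72, adjusted p = 0.0028). COL4A3 and COL4A4, basement membrane chains, shared that order, with 18.2, 6.17 and 3.09 CPM for COL4A3 and 24.2, 5.59 and 4.98 CPM for COL4A4 in the DTP libraries, and with acute values of at most 1.43 CPM. COL1A1, also a fibrillar chain, was at 34.4, 42.2 and 35.5 CPM in acute and 101, 55 and 86.8 CPM in DTP (log2 fold change 1.12, standard error 0.21, adjusted p = 0.00716). COL1A2, the partner chain of collagen I in fibroblasts, was at 0.224, 0.191 and 0.844 CPM in acute and 0.202, 0.0486 and 0.231 CPM in DTP and was not tested. THBS1 and FBN1, the matrix proteins thrombospondin-1 and fibrillin-1, each had a log2 fold change of 2.16 (adjusted p = 0.00575 and 0.00249).

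Among integrins and laminins, 3 of 20 genes were called higher and 5 lower (median -0.02; 3 lower without acute replicate 3). ITGB3, an integrin chain that binds vitronectin and fibronectin, was at 4.42, 4.87 and 7.6 CPM in acute and 34.7, 30.01 and 30.8 CPM in DTP (log2 fold change 2.5, standard error 0.22, adjusted p = 0.000487). ITGB6, an epithelial integrin chain, and LAMB3, a laminin chain of epithelial basement membranes, had log2 fold changes of -1.73 and -1.49 (adjusted p = 0.00506 and 0.00492). Markers of other cell types were examined beside these results. Of 12 fibroblast markers, 7 could be tested and 5 were called higher (COL1A1, COL3A1, LUM, PDGFRB and TAGLN; 3 without acute replicate 1 or 3), and their summed level was 51.4 to 60.2 CPM in acute and 93.1 to 235 CPM in DTP libraries. COL3A1, LUM and PDGFRB had 24, 56 and 18 reads over the 3 acute libraries and 740, 377 and 175 reads over the 3 DTP libraries, and TAGLN was at 12.3, 14.4 and 11.2 CPM in acute and 89, 26.1 and 75.2 CPM in DTP. Genes low in both groups did not enter the test, and COL3A1 and PDGFRB entered it through their DTP reads. The 5 of 7 are therefore a description and not a test of the list. COL1A2, DCN, THY1, FAP, POSTN and PDGFRA, of the same list, had 26, 26, 4, 13, 0 and 11 reads in acute and 10, 51, 5, 6, 2 and 19 reads in DTP. ACTA2 was at 1.9, 1.004 and 1.31 CPM in acute and 1.82, 0.728 and 1.98 CPM in DTP. None of 5 endothelial and 3 leukocyte markers tested was called by edgeR or DESeq2 (0 and 1 at an unadjusted p under 0.05). PTPRC, a gene of all leukocytes, had 5 and 11 reads. The part of other cell types in the collagen result was not tested.

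Of 20 genes linked to YAP and TEAD, the growth-control factors of the Hippo pathway, 6 were called higher in DTP than in acute and 1 lower (median 0.07). The 1 was 3 without DTP replicate 1 and 0 without any other library. YAP1 and WWTR1, which encode the coactivators, were not called (adjusted p = 0.208 and 0.256). ANKRD1, a textbook target, was at 52.2, 58 and 54.1 CPM in acute and 356, 376 and 484 CPM in DTP libraries, a log2 fold change of 2.9 (standard error 0.14, adjusted p = 8.93e-05) on top of a rise of 2.91 between acute and DMSO. CCN2, the connective tissue growth factor and also a textbook target, was at 9.34, 9.22 and 53.8 CPM in acute and 167, 173 and 114 CPM in DTP (log2 fold change 2.66, standard error 0.65, adjusted p = 0.0189). Acute replicate 3 stood above both other acute libraries, and the call of CCN2 was lost without acute replicate 1 or 2. Its sister gene CCN1 was at 1849, 1696 and 2488 CPM in acute and 2011, 1806 and 1843 CPM in DTP (log2 fold change -0.08, standard error 0.15, adjusted p = 0.71). TGFB2, a ligand of the TGF-beta pathway, rose by a log2 fold change of 0.99 (standard error 0.1, adjusted p = 0.000798). The promoter of CCN2, whose call depends on single libraries as given above, is shown as an example of a window with the TEAD letters GGAATG on the gene's own strand (in capitals), at chr6:131951374-131951622, minus strand, RefSeq, GRCh38.p14. These letters, on either strand, were in the 250 bases before the start site in 9 of 15 listed genes with a promoter in the table and in 14.3% of all 27305 genes. The list gathers genes already linked to YAP and TEAD, so that the 9 of 15 are a description and not a test. Of the 9 genes, 4 were called higher (CCN2, ANKRD1, AXL and TGFB2), AMOTL2 was the 1 called lower, and YAP1, AJUBA, NUAK2 and PTPN14 were not called.
CCN2: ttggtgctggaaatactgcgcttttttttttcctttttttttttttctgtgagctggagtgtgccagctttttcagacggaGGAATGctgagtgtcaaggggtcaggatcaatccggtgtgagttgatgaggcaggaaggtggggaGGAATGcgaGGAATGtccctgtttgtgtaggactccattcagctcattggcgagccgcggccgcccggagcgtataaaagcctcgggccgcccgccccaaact

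Receptor tyrosine kinases and their ligands changed in both directions, with 9 of 27 tested called higher and 6 lower (median 0.31). Without acute replicate 1 the number higher was 6. AXL, a receptor tied to tolerance of EGFR inhibitors, was at 8.84, 9.75 and 11 CPM in acute and 70.5, 191 and 262 CPM in DTP libraries, a 17.7-fold difference of means (log2 fold change 4.15, standard error 0.45, adjusted p = 0.000965). The acute level lay below DMSO (-0.98), and DTP replicate 1 was the lowest of the DTP libraries. FGFR1, a receptor for fibroblast growth factors, was at 16.2, 13.4 and 15.4 CPM in acute and 36.3, 65 and 53.3 CPM in DTP (log2 fold change 1.79, standard error 0.21, adjusted p = 0.00121). KIT, the receptor of stem cell factor, was at 0.895, 0.143 and 0.0938 CPM in acute and 6.78, 12.4 and 27.8 CPM in DTP, with 21 and 991 reads over the 3 libraries of each group (log2 fold change 5.43, standard error 0.8, adjusted p = 0.00284). In contrast, ERBB3, the partner receptor of EGFR and ERBB2, was at 207, 284 and 229 CPM in acute and 80.3, 43.7 and 23.3 CPM in DTP libraries (log2 fold change -2.28, standard error 0.39, adjusted p = 0.00492), after a rise under acute drug (1.17). ERBB2 and MET, a receptor whose amplification bypasses EGFR, were not called (log2 fold change -0.19 and 0.18, adjusted p = 0.369 and 0.453). Among EGFR ligands, HBEGF was at 34.1, 28.4 and 48.8 CPM in acute and 99, 66.8 and 111 CPM in DTP (log2 fold change 1.33, standard error 0.24, adjusted p = 0.00597). AREG and TGFA had log2 fold changes of -1.26 and -1.04 (adjusted p = 0.00284 and 0.00579). HGF, the ligand of MET, was at 5.26, 8.03 and 7.03 CPM in acute and 0.911, 0.728 and 1.25 CPM in DTP (log2 fold change -2.8, standard error 0.32, adjusted p = 0.0012).

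Where a called gene averaged 1 CPM or more across the 6 libraries and its groups did not overlap, the 10 largest rises were those of transcripts near or at 0 in acute cells. CNRIP1, which encodes a protein that binds a cannabinoid receptor, had 0 reads over the 3 acute and the 3 DMSO libraries and 249 reads over the 3 DTP libraries (0.506, 5.68 and 5.63 CPM). Set against a floor of 3 reads over the acute group, it was at least 80.5-fold higher, and in the same way INSYN2B was at least 67.9-fold and ENPP2, the gene of autotaxin, at least 44.3-fold higher. KIF26A, a kinesin-like gene, was at 0.28, 0.287 and 0.234 CPM in acute, with 16 reads in all, and at 40.4, 44.7 and 61.1 CPM in DTP libraries (log2 fold change 7.49, standard error 0.26, adjusted p = 2.76e-05). IGFN1, a gene of a muscle protein with immunoglobulin and fibronectin domains, was at 1.73, 1.86 and 2.16 CPM in acute and 86.2, 373 and 454 CPM in DTP, a 159-fold difference of means (log2 fold change 7.31, standard error 0.68, adjusted p = 0.000608), with DTP replicate 1 well under the other DTP libraries. SFMBT2, a Polycomb-related gene, and GUCY1A2, a guanylate cyclase subunit, had 6 and 4 reads over the acute libraries and 1821 and 876 reads over the DTP libraries. PLPP4, DES and DRD2 had 3, 2 and 1 reads in acute and 501, 325 and 158 reads in DTP libraries. DES encodes desmin, a filament of muscle. DRD2, a dopamine receptor, was highest in DTP replicate 1, at 5.87, 1.31 and 0.692 CPM, and so was ENPP2, at 2.53, 1.8 and 2.31 CPM. INSYN2B overlaps DOCK2 on the other strand, and whether strand entered the counting is not given in the sources used here.

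By the same rule, the 10 largest falls were mainly of transcripts that were also higher in acute than in DMSO, a comparison that uses the same acute libraries. CHIA, an acidic chitinase, was at 11.1, 24.7 and 10.8 CPM in acute, 0.86, 1.21 and 1.15 CPM in DTP and 0.679, 0.195 and 2.9 CPM in DMSO libraries (log2 fold change -3.83, standard error 0.4, adjusted p = 0.000875). CHIA has 3 named pseudogenes, between which reads could be split. HABP2, a plasma protease that binds hyaluronan, was at 13, 16.7 and 15 CPM in acute and 0.81, 1.41 and 0.969 CPM in DTP (log2 fold change -3.79, standard error 0.26, adjusted p = 0.000327), and at 2.66, 1.32 and 5.76 CPM in DMSO. HHLA2, a surface protein of the B7 family of T-cell regulators, was at 89.3, 152 and 109.5 CPM in acute and 19.3, 13.8 and 7.75 CPM in DTP, an 8.58-fold fall (log2 fold change -3.09, standard error 0.33, adjusted p = 0.000965), against 35.9, 20.7 and 47.6 CPM in DMSO. POU2F3, the master factor of tuft cells, was at 7.89, 5.78 and 5.02 CPM in acute and 1.21, 0.583 and 0.0923 CPM in DTP (log2 fold change -3.3, standard error 0.65, adjusted p = 0.00839). The others were DEFB1, ADCY4, TMEM265, ITIH4, NOS3 and NAPSA, with log2 fold changes from -3.69 to -2.98. Against DMSO, 9 of these 10 had been higher in acute cells, all but ITIH4 (acute against DMSO 0.83, adjusted p = 0.128). Over all genes the share was 20.2%. Genes picked for high values in the acute libraries are more likely to be higher there than in DMSO, so the 9 is a description and not a test. HABP2, NOS3 and NAPSA overlap NRAP, ATG9B and NR1H2 on the other strand, and ATG9B was called lower as well.

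**Figure D3:**
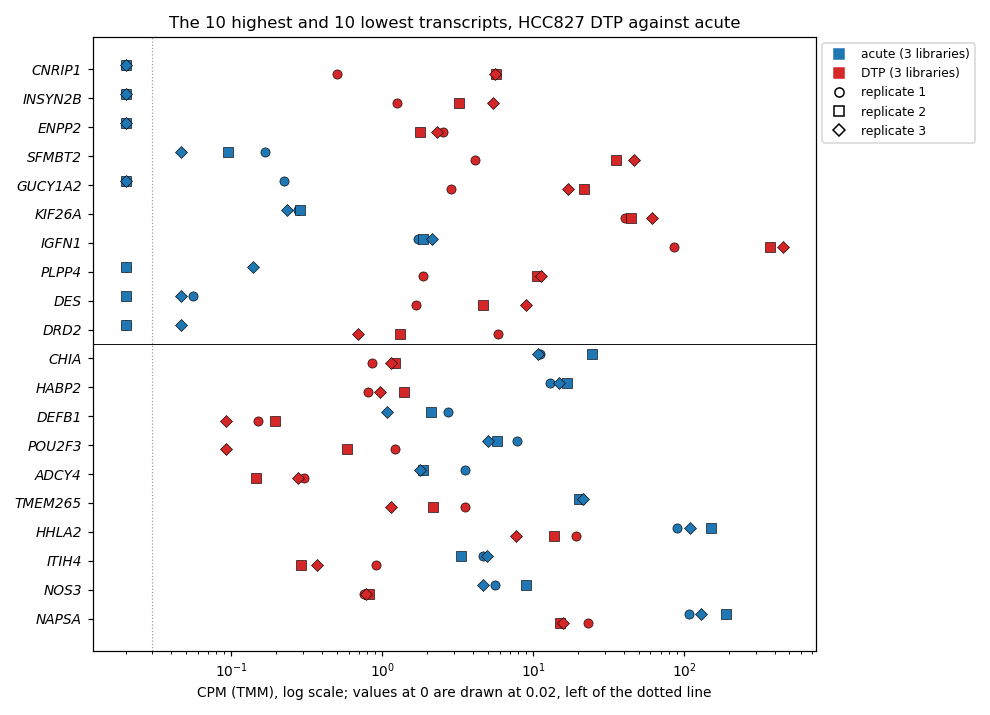
TMM-normalized CPM (log axis) of the 10 genes with the highest and the 10 with the lowest log2 fold change among the called genes whose mean level reached 1 CPM and whose groups did not overlap, 1 point per acute (blue) or DTP (red) library, its shape the replicate number, and values of 0 drawn left of the dotted line. The 10 highest were at most 2.16 CPM in any acute library, and DTP replicate 1 (circle) is below both other DTP libraries in 8 of them, ENPP2 and DRD2 excepted.

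Transcripts of lung and secretory differentiation were called lower more often than higher, though most were not called lower. Of 15 alveolar genes tested, 7 were called lower and 3 higher (median -0.65). NAPSA, an aspartic protease that processes surfactant protein B, was at 108, 189.6 and 129 CPM in acute and 23.1, 15 and 15.8 CPM in DTP libraries (log2 fold change -2.98, standard error 0.25, adjusted p = 0.000487). SFTA2, a surfactant-associated gene, was at 68.1, 65.6 and 67.4 CPM in acute and 14.1, 6.17 and 6.23 CPM in DTP (log2 fold change -2.91, standard error 0.31, adjusted p = 0.000902). NKX2-1, the lineage factor of the lung, was at 83.9, 95.1 and 80.2 CPM in acute and 71.1, 64 and 64 CPM in DTP, and its call (log2 fold change -0.37, standard error 0.1, adjusted p = 0.0291) was lost without acute replicate 1, acute replicate 2, DTP replicate 2 or DTP replicate 3. ABCA3, the lipid transporter of lamellar bodies, went the other way, from 30.6, 31.1 and 28.5 CPM in acute to 49.4, 75.3 and 94.9 CPM in DTP (log2 fold change 1.29, standard error 0.21, adjusted p = 0.0041). The number higher was 1 without acute replicate 1 or acute replicate 2. Of 14 airway genes, 4 were called lower, all mucins (MUC1, MUC4, MUC16 and MUC20), and 1 higher, MUC5B, which lost its call without any acute library or DTP replicate 2. Without DTP replicate 2, 8 were lower. MUC1 was at 135, 189 and 161 CPM in acute and 25.7, 44.6 and 27.4 CPM in DTP (log2 fold change -2.3, standard error 0.23, adjusted p = 0.00078). MUC20 was at 49.1, 83.2 and 50.1 CPM in acute and 7.59, 14.5 and 7.48 CPM in DTP (log2 fold change -2.62, standard error 0.32, adjusted p = 0.0014). KRT17, a basal and stress keratin, was at 5.98, 3.35 and 2.91 CPM in acute and 82.1, 18.6 and 29.5 CPM in DTP (log2 fold change 3.43, standard error 0.58, adjusted p = 0.0046), highest in DTP replicate 1. KRT17 has 8 named pseudogenes.

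Transcripts of surface proteins that are targets or candidate targets of antibodies were called lower more often than higher. Of 21 listed, 11 were called lower and 1, PDCD1LG2 (the PD-1 ligand PD-L2), higher (median -1.02), with 8 to 12 lower when single libraries were left out. CD47, the signal that restrains phagocytosis, was at 403, 407 and 438 CPM in acute and 119, 141 and 87.5 CPM in DTP libraries, against 304, 323 and 320.2 CPM in DMSO, so that DTPs lay under both (log2 fold change -1.83, standard error 0.17, adjusted p = 0.000561). CD24, a sialylated surface protein, was at 1211, 1287 and 1347 CPM in acute and 692, 571 and 621 CPM in DTP (log2 fold change -1.02, standard error 0.1, adjusted p = 0.000798), above its DMSO level of 463, 396 and 506 CPM in each DTP library. CD24 has 3 named pseudogenes. CEACAM5 and CEACAM6 were not called (adjusted p = 0.562 and 0.295).

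In antigen presentation, the MHC class II pathway held more calls lower than higher in DTPs. Of 8 MHC class II pathway genes tested, 5 were called lower and 0 higher (median -1.30), after 6 had been higher in acute than in DMSO (median 1.61), and against DMSO none was called in DTPs by edgeR or DESeq2 (median 0.07, 1 at an unadjusted p under 0.05). The 5 were 3 without acute replicate 2 or 3. CTSS, the protease that trims the invariant chain, was at 84.3, 112 and 93.4 CPM in acute, 27.2, 36.9 and 21.8 CPM in DTP and 28.9, 24.3 and 28.9 CPM in DMSO libraries (log2 fold change -1.74, standard error 0.2, adjusted p = 0.00114). HLA-DMA, a peptide loader, was at 9.96, 12.3 and 9.004 CPM in acute and 5.67, 4.18 and 2.95 CPM in DTP (log2 fold change -1.28, standard error 0.27, adjusted p = 0.0116). HLA-DRA was at 1.29, 2.53 and 1.55 CPM in acute and 0.152, 1.55 and 0.415 CPM in DTP, with overlapping values (adjusted p = 0.21). In the MHC class I pathway, where 10 of 17 had been higher in acute than in DMSO, 5 were lower in DTP than in acute and 0 higher (median -0.24; 3 without acute replicate 1, acute replicate 2 or DTP replicate 3). TAPBP, the tapasin of peptide loading, and the immunoproteasome subunits PSMB8 and PSMB10 had log2 fold changes of -0.94, -0.74 and -1.36 (adjusted p = 0.00106, 0.00207 and 0.00129). The antigen-presenting chains HLA-B and HLA-C were not called (0.37 and -0.24, adjusted p = 0.199 and 0.171). These genes are near-identical in sequence, so that reads could be split between them.

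Interferon-stimulated genes did not move as a block, with 4 of 29 called higher and 3 lower (median 0.03). The number higher was 2 without acute replicate 1, acute replicate 3, DTP replicate 2 or DTP replicate 3, and 7 without DTP replicate 1. IFI27 was at 31.5, 43.3 and 20.9 CPM in acute and 96.2, 177 and 171 CPM in DTP (log2 fold change 2.22, standard error 0.31, adjusted p = 0.00229). BST2, the tether that holds back budding virus, was at 11.2, 18.3 and 10.2 CPM in acute and 32.5, 83 and 64 CPM in DTP (log2 fold change 2.18, standard error 0.36, adjusted p = 0.00407). GBP2, a guanylate-binding protein, and IFIT2 had been raised by acute drug (2.23 and 1.71) and were lower in DTP than in acute (-1.01 and -0.72, adjusted p = 0.00173 and 0.0020). Among 25 chemokines and cytokines 5 were called higher and 3 lower (median 0.13). CXCL10 and CXCL11, ligands of the T-cell receptor CXCR3, fell together. CXCL10 was at 3.97, 3.35 and 4.78 CPM in acute and 0.607, 0.631 and 0.554 CPM in DTP libraries, and CXCL11 at 5.09, 3.58 and 6.003 CPM in acute and 1.16, 0.583 and 0.646 CPM in DTP (-2.73 and -2.6, adjusted p = 0.00139 and 0.00308). TNFSF10, the death ligand TRAIL, was at 22, 22.7 and 21.6 CPM in acute and 4.25, 4.47 and 4.62 CPM in DTP (log2 fold change -2.3, standard error 0.14, adjusted p = 0.000223). CCL2, which draws monocytes, was at 0.28, 0.765 and 0.563 CPM in acute and 9.67, 7.38 and 4.02 CPM in DTP (log2 fold change 3.69, standard error 0.48, adjusted p = 0.00179). The number higher was 2 without acute replicate 1 and 3 without acute replicate 2, acute replicate 3 or DTP replicate 3, and the number lower was 5 without DTP replicate 1 and 7 without DTP replicate 2. Of 19 genes of NF-kB and the acute phase, 8 were lower and 0 higher (median -0.48), a count that ran from 3 without acute replicate 1 or 3 and 4 without acute replicate 2 or DTP replicate 3 to 14 without DTP replicate 2. SERPINA1, an acute-phase antiprotease, was called in all of these fits (log2 fold change -1.62, standard error 0.22, adjusted p = 0.00195).

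In metabolism, cholesterol synthesis was lower still than under acute drug. Of 24 genes 12 were called lower and 0 higher (median -0.48), after 19 had been lower in acute than in DMSO (median -0.63), and 21 were lower in DTP than in DMSO (median -1.14). The 12 became 5 without acute replicate 1 and 6 without acute replicate 2. HMGCS1, the first committed enzyme, was at 136, 131 and 131 CPM in acute and 60.4, 70.3 and 92.1 CPM in DTP libraries, against 296, 247 and 170.2 CPM in DMSO (log2 fold change -0.82, standard error 0.15, adjusted p = 0.00553). SCD, the desaturase of fatty acids, was at 804, 720.2 and 409 CPM in acute and 187, 296 and 296 CPM in DTP (log2 fold change -1.3, standard error 0.27, adjusted p = 0.0101). Of 17 fatty acid synthesis genes 5 were lower and 1 higher (median 0.01), with 2 lower without acute replicate 2 and 3 without acute replicate 1, acute replicate 3, DTP replicate 2 or DTP replicate 3. Of 29 glycolysis and hypoxia genes 10 were higher and 4 lower (median 0.01), where 15.7% of all genes were called higher and 13.8% lower. The 10 were 6 without acute replicate 1 or 2, and the 4 were 2 without acute replicate 1 or 3. SLC2A3, the glucose transporter GLUT3, was at 2.07, 1.15 and 0.891 CPM in acute and 7.79, 33.2 and 29.6 CPM in DTP (log2 fold change 4.12, standard error 0.59, adjusted p = 0.00252). CA12, a carbonic anhydrase, was at 0.727, 1.43 and 0.938 CPM in acute and 5.52, 11.6 and 8.17 CPM in DTP (log2 fold change 3.02, standard error 0.38, adjusted p = 0.00169). HK2, the hexokinase of many tumours, was at 64.6, 57.8 and 71.7 CPM in acute and 35.6, 34.1 and 32.9 CPM in DTP (log2 fold change -0.91, standard error 0.11, adjusted p = 0.00128). SLC2A3 has 3 named pseudogenes.

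Mitochondrially encoded transcripts were higher in DTP, 11 of 13 called and 0 lower (median 0.56), though 6 without acute replicate 1 and 7 without acute replicate 3. MT-ND6, the complex I subunit of the light strand, was at 739, 812 and 725 CPM in acute and 1430.3, 1435 and 1440.3 CPM in DTP (log2 fold change 0.93, standard error 0.09, adjusted p = 0.00063). MT-ND5 lies directly beside MT-ND6 on the other strand, and whether strand entered the counting is not given in the sources used here. The nuclear genes of the respiratory chain had 2 of 36 higher and 4 lower, with a median of 0 to 2 decimals. The 2 were 0 without any acute library or DTP replicate 3, and the 4 were 0 without acute replicate 1, 1 without acute replicate 2 or 3 and 2 without DTP replicate 2 or 3. The ribosomal proteins had 0 of 37 higher and 4 lower (median -0.13), the 4 being 0 without acute replicate 1, 1 without DTP replicate 2 and 2 without acute replicate 3. Of 32 lysosome and autophagy genes 12 were higher and 2, CTSS and ATG9B, lower (median 0.28), with 6 higher without acute replicate 1 or 3. CTSL, a lysosomal protease with 6 named pseudogenes, was at 39.9, 40.1 and 40.6 CPM in acute and 88.6, 106 and 119 CPM in DTP (log2 fold change 1.39, standard error 0.12, adjusted p = 0.000482). TFE3, a factor that drives lysosomal genes, was at 33.4, 32.8 and 36.5 CPM in acute and 59.4, 58.8 and 66 CPM in DTP (log2 fold change 0.85, standard error 0.1, adjusted p = 0.00112). Of 16 aldehyde dehydrogenases, detoxifying enzymes often used as markers of stem-like tumour cells, 1 was higher and 4 lower (median -0.20). ALDH1A1 was at 0.224, 0.143 and 0.141 CPM in acute and 1.82, 3.5 and 3.97 CPM in DTP (log2 fold change 4.17, standard error 0.51, adjusted p = 0.00141). ALDH1A3, the form with the most counts in this line, was at 568, 502 and 744 CPM in acute and 301, 156 and 284 CPM in DTP (log2 fold change -1.28, standard error 0.25, adjusted p = 0.00856).

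**Figure D4:**
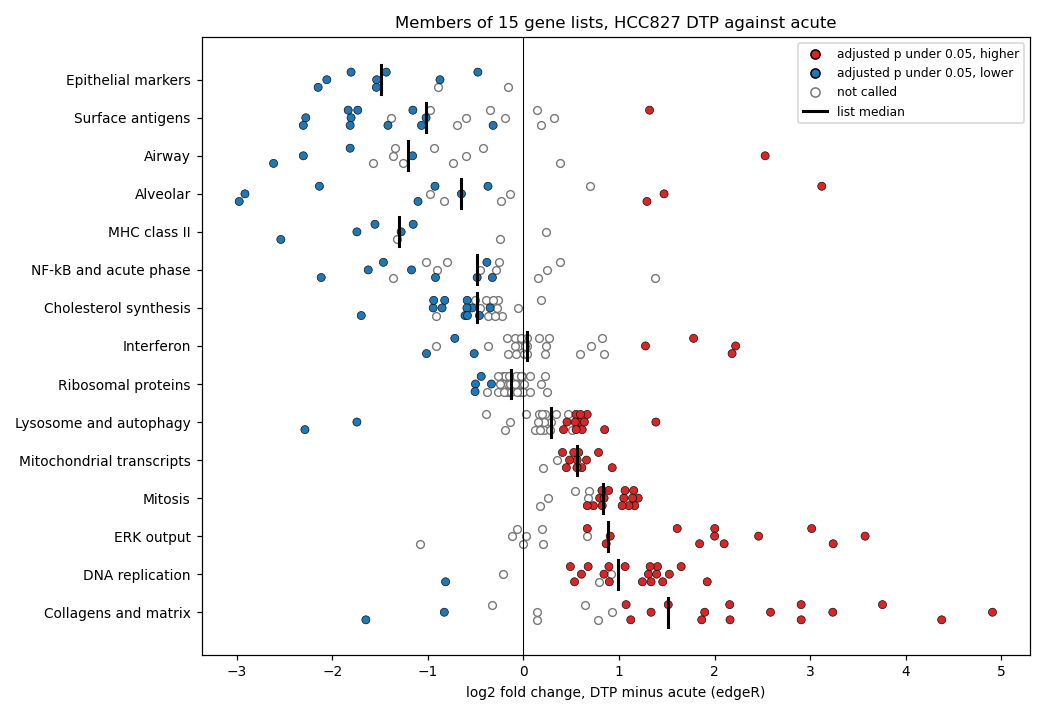
Log2 fold change of DTP against acute (edgeR) for every tested member of 15 gene lists in HCC827, filled where the adjusted p was under 0.05 and open otherwise, with a bar at each list's median. Medians run from -1.49 for epithelial markers to 1.52 for collagens and matrix, against 0.000546 over all genes.

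Smaller groups gave single genes of interest. WNT pathway genes had 8 of 24 called higher and 4 lower (median 0.38; 2 lower without acute replicate 1 or DTP replicate 2). WNT5A, a ligand of non-canonical signalling, was at 2.4, 2.34 and 1.45 CPM in acute and 6.73, 11.1 and 7.98 CPM in DTP (log2 fold change 2.06, standard error 0.3, adjusted p = 0.0028). SOX9, a progenitor factor of the lung bud, was at 1.51, 2.49 and 4.5 CPM in acute and 23.4, 17 and 11.6 CPM in DTP (log2 fold change 2.61, standard error 0.41, adjusted p = 0.00365). Of 21 apoptosis genes 3 were higher and 6 lower (median -0.27). The 6 were 3 without acute replicate 3 and 4 without acute replicate 1, acute replicate 2 or DTP replicate 3. HRK, a BH3-only activator of cell death, was at 1.12, 1.1 and 1.36 CPM in acute and 11.2, 5.68 and 6.41 CPM in DTP (log2 fold change 2.71, standard error 0.34, adjusted p = 0.00168). BOK, a death effector of the BCL2 family, was at 47.4, 43.8 and 52.1 CPM in acute and 125, 106 and 148 CPM in DTP (log2 fold change 1.41, standard error 0.14, adjusted p = 0.000717). BCL2L11, the BH3-only protein BIM, was lower by a log2 fold change of -0.48 (standard error 0.09, adjusted p = 0.00788). Of 20 NRF2 targets 4 were higher and 3 lower (median 0.03; 2 higher without acute replicate 2, acute replicate 3 or DTP replicate 3, and 1 lower without acute replicate 2). HMOX1, which breaks down haem, was at 12.8, 11.2 and 15.3 CPM in acute and 25, 40.8 and 79.5 CPM in DTP (log2 fold change 1.89, standard error 0.38, adjusted p = 0.00885). Of 32 chromatin regulators 2 were higher and 3 lower (median -0.07). The 2 were 1 without acute replicate 1 and 0 without acute replicate 2, and the 3 were 1 without acute replicate 1, acute replicate 3 or DTP replicate 2, 0 without acute replicate 2 or DTP replicate 3 and 8 without DTP replicate 1. EZH2, the Polycomb methyltransferase, was not among them (adjusted p = 0.815). Of the 12 genes that the study singled out, 1, FOSL1, was called higher and 2, EGFR and SRC, lower, where 15.7% of all genes were called higher and 13.8% lower. SRC was at 189.6, 217 and 219.6 CPM in acute and 129, 131 and 122 CPM in DTP (log2 fold change -0.7, standard error 0.09, adjusted p = 0.0019).

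The remaining lists are given by their counts. Of 16 cyclin D and CDK inhibitor genes 6 were called higher and 2 lower (median 0.31; 2 higher without acute replicate 2 and 3 without acute replicate 1, and 1 lower without any acute library, DTP replicate 2 or DTP replicate 3, 4 without DTP replicate 1). Besides CCND1 they held RBL1, an RB relative, at 1.05 (standard error 0.22, adjusted p = 0.0104), and RBL2, the relative active in quiescent cells, at -0.69 (standard error 0.13, adjusted p = 0.00751). Of 10 histone genes 2 were higher and 3 lower (median -0.35). H2AX, the variant that is phosphorylated at DNA breaks, was at 30.03, 28.2 and 33.5 CPM in acute and 57.5, 63.5 and 72 CPM in DTP (log2 fold change 1.08, standard error 0.12, adjusted p = 0.000965). H1-2, a linker histone, had a log2 fold change of -1.03 (standard error 0.22, adjusted p = 0.0113). The libraries were poly(A)-selected, which leaves out histone transcripts without a poly(A) tail. Of 13 AP-1 genes 3 were higher and 1, JUNB, lower (median 0.30), JUNB at -0.98 (standard error 0.18, adjusted p = 0.00618). Of 10 keratins 2, KRT17 and KRT20, were higher and 2, KRT18 and KRT19, lower (median -0.27; 0 lower without acute replicate 1 or 3, 1 without DTP replicate 2 and 4 without DTP replicate 1). Of 13 Notch genes 4 were higher and 1 lower (median 0.64; 2 higher without acute replicate 1, acute replicate 2, DTP replicate 2 or DTP replicate 3, 0 lower without acute replicate 2 and 3 without DTP replicate 1), with HEYL, a Notch target, at 2.78 (standard error 0.57, adjusted p = 0.00941).

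Of 19 FOXO targets 5 were higher and 4 lower (median 0.07; 1 lower without acute replicate 1, acute replicate 2 or DTP replicate 3, and 2 without acute replicate 3). SESN3, a sestrin that restrains the growth kinase mTORC1, was at 7.94, 7.12 and 4.92 CPM in acute and 20.8, 32.1 and 35.7 CPM in DTP libraries (log2 fold change 2.16, standard error 0.26, adjusted p = 0.00129). Of 32 ribosome biogenesis genes 4 were higher and 0 lower (median 0.15; 0 without any acute library or DTP replicate 2, and 1 without DTP replicate 3). Of 32 genes of ATF4 and the tRNA synthetases 8 were higher and 2 lower (median 0.12; 3 higher without acute replicate 2, 4 without acute replicate 3 and 5 without acute replicate 1, and 9 lower without DTP replicate 1 and 1 without any other library). DDIT4, an inhibitor of mTORC1 induced by stress, was at 214, 146 and 150.2 CPM in acute and 77.7, 82.7 and 88.2 CPM in DTP (log2 fold change -1.03, standard error 0.15, adjusted p = 0.00299). Of 15 ferroptosis genes 4 were higher and 4 lower (median 0.22; 1 higher without acute replicate 2 or DTP replicate 3 and 2 without acute replicate 1 or 3, and 2 lower without acute replicate 1, acute replicate 3 or DTP replicate 2). ALOX5, a lipoxygenase, fell by 2.80 on the log2 scale (adjusted p = 0.0125). Of 12 heat shock genes 4 were higher and 1 lower (median 0.21; 1 higher without acute replicate 2 and 2 without acute replicate 3 or DTP replicate 3, and 0 lower without any library but DTP replicate 1). HSP90AA1, the inducible HSP90 chaperone, was at 982, 1005 and 1095 CPM in acute and 1740.1, 1714 and 1785 CPM in DTP (log2 fold change 0.77, standard error 0.09, adjusted p = 0.00106).

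Whether these differences were particular to HCC827 was tested against the same contrast in PC9, H1975 and HCC2935, in 24 libraries. Of 16168 genes, 3403 (21%; 11.1% higher and 9.9% lower in HCC827) had a DTP against acute change that differed from the mean of the other 3 lines, 1802 higher and 1601 lower, against 1306 and 2777 by limma on log2 TPM. Among the tested genes 999 had a group at 0 reads in some line, of which 57 were called, and such genes are given below as reads. Reads are not scaled to depth, which differed between lines. The acute and DTP libraries held 34.7 to 49.1 M counts in PC9 and H1975, against 17.7 to 24.7 M in HCC827 and HCC2935. None of the 10 epithelial markers was called by edgeR or DESeq2 (3 at an unadjusted p under 0.05). The mean of the other lines held unlike parts: against HCC2935 alone 8 of the 10 fell more in HCC827 and against PC9 alone 5 did, and without HCC827 DTP replicate 1, 4 were called against the mean. Over all genes, 1925 were called lower in HCC827 against HCC2935 alone, 1668 against PC9 alone and 1918 without HCC827 DTP replicate 1. CDH1 had log2 fold changes of -2.15 in HCC827, -0.12 in PC9, -5.29 in H1975 and 0.18 in HCC2935. The count of epithelial markers against H1975 alone, where CDH1 fell more than in HCC827, is not given here. The rises of AXL, ZEB1, COL5A1, COL6A2 and SPARC were larger in HCC827 than the mean of the others, by 3.94, 2.56, 2.76, 2.74 and 3.04 on the log2 scale (adjusted p = 3.84e-07, 0.000178, 2.28e-06, 3.54e-07 and 0.000166). The log2 fold changes in PC9, H1975 and HCC2935 were 2.19, 0.14 and 2.55 for COL5A1 and 2.03, 0.41 and 2.42 for SPARC, so that both had positive values in every line. COL6A2 was at -1.04, -0.67 and 2.21, and ZEB1 at -0.08, 0.84 and 0.92. For AXL the other lines were at -0.35, -0.13 and 1.12, and AXL had 14165 and 13367 reads in acute PC9 and H1975 against 597 in acute HCC827. IGFN1 and KIF26A differed by 7.74 and 7.6 (adjusted p = 8.46e-08 and 1.19e-10), and in no other line was their log2 fold change above 0.82. For all 13 mitochondrial transcripts the change from acute to DTP was called larger in HCC827 than the mean of the others, with a median difference of 0.94 in log2 fold change.

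The 5 largest differences in the other direction were those of ABCB1, SULT1E1, HABP2, PDZK1IP1 and UBD, which were lower in DTP than in acute in HCC827. ABCB1, the drug efflux pump MDR1, had 1155 reads in acute and 368 in DTP libraries of HCC827, but 3 and 41 in PC9, 0 and 30 in H1975 and 5 and 158 in HCC2935. The call of ABCB1 in HCC827 (log2 fold change -1.64, standard error 0.47, adjusted p = 0.0335) was lost when any of 5 libraries was left out, DTP replicate 1 excepted. SULT1E1, an estrogen sulfotransferase, PDZK1IP1, a small membrane protein, and UBD, a ubiquitin-like protein induced by interferon, differed by -4.84, -4.2 and -4.17 (adjusted p = 7.79e-06, 1.67e-07 and 2.67e-05), with the call of SULT1E1 between DTP and acute lost without acute replicate 2, acute replicate 3 or DTP replicate 3. HABP2 had 900 and 66 reads in HCC827 and at most 10 in any group of the other lines. CD47 had log2 fold changes of -1.84 in HCC827 and 1.12, -0.57 and -0.06 in PC9, H1975 and HCC2935, a difference of -2.0 (adjusted p = 7.16e-08). The genes with the highest differences were INSYN2B, GLIS1, TMEM233, IGFN1 and ENPP2. GLIS1 and TMEM233 had 2 reads each in acute HCC827, 277 and 182 in DTP, and 0 to 42 in the groups of the other lines, and ENPP2 had 71 and 123 reads in acute and DTP libraries of H1975.

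**Figure D5:**
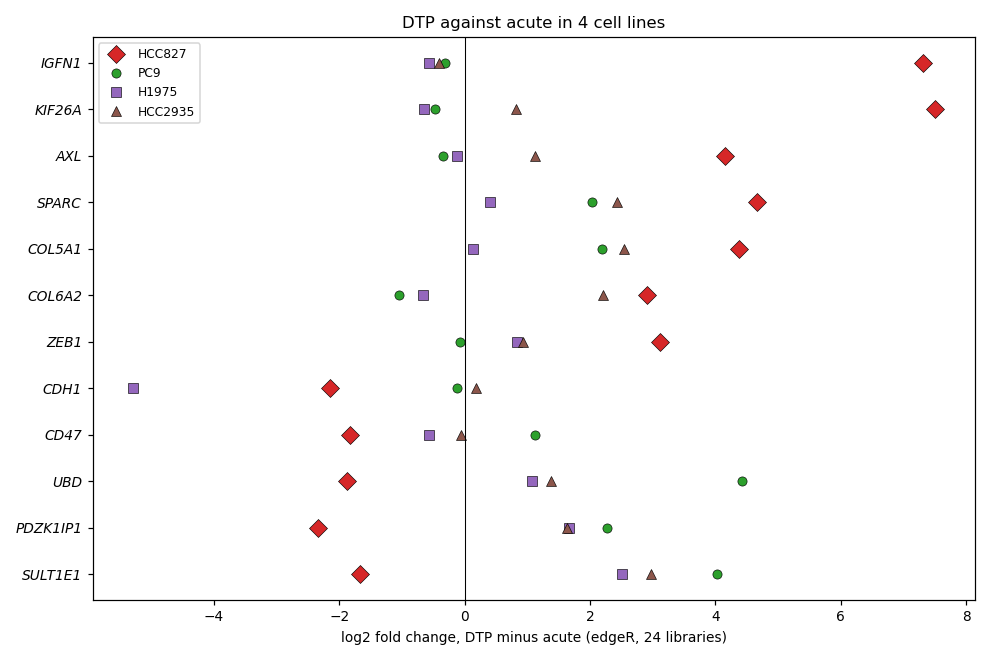
Log2 fold change of DTP against acute in HCC827 (red diamonds), PC9, H1975 and HCC2935 for 12 genes, from 1 edgeR fit of 24 libraries, with 0 marked by a vertical line. HCC827 stands apart from the other 3 lines for IGFN1, KIF26A, AXL and ZEB1 (higher) and for CD47, UBD, PDZK1IP1 and SULT1E1 (lower), while for CDH1 H1975 is the lowest.

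The state of the DTP libraries was still visible after the drug had been removed, which is described here without a test. CDH1 was at 490.4, 252 and 132 CPM after the short washout and 299, 215 and 338 CPM after the long one, all below the acute and DMSO libraries. COL5A1 was at 479.6, 485 and 689 CPM after the short washout and 424, 513 and 303 CPM after the long one, and AXL at 93, 229.8 and 302 CPM after the short washout and 165, 236 and 153 CPM after the long one, all above them. Short washout libraries deviated together with the DTP libraries of the same number: deviations from the group means correlated at 0.716, 0.431 and 0.543 across genes for replicates 1, 2 and 3, higher than with any other number. Long washout libraries did not, with -0.204, 0.101 and -0.349. DUSP6 was at 5.39, 21.1 and 8.03 CPM after 24 h and 35.9, 28.5 and 24.7 CPM after 96 h without drug, where it exceeded all DMSO libraries, while MKI67 was at 164, 184 and 172 CPM after the long washout, below all of them.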

How the data were processed

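RNA was measured by poly(A)-selected paired-end RNA-Seq (Illumina TruSeq mRNA, HiSeq4000) in 60 libraries of 4 cell lines, 15 of them HCC827. The submitters' processing notes name HISAT2 2.1.0, Salmon 0.8.2 and build hg38. The authors deposited Salmon estimated counts per gene and log2 TPM values with a pseudocount of 0.01, for 19712 genes. Rounded estimated counts were tested with edgeR 4.0.16 (R 4.3.3; TMM, filterByExpr, quasi-likelihood test, two-sided, Benjamini-Hochberg over all genes tested, calls at an adjusted p under 0.05), in 6 libraries a comparison or, between lines, in 24. CPM values were TMM-scaled over the 15 HCC827 libraries. Depth was 17.7 to 22.2 M counts in the 6 libraries, and 3 libraries a group limit the precision. P-values measure the spread between biological triplicates, as labelled, of 1 line. Per the labels, triplicates were numbered alike in every arm, and the numbers did not pair DTP with acute libraries. Whether counting used strand is not given in the sources used here. Gene positions and overlaps came from GENCODE v29.

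Groups were taken from the labels. The comparison, the 43 gene lists and the tests were chosen with earlier results of these data known. Genes named are the 10 highest and 10 lowest called, the first 3 and the 4 largest called of each list (not all printed, and some items are not reported here), the genes of the study's own list, and the 5 highest and 5 lowest differences between lines. Other genes were chosen after their values were seen: ETV4, ETV5, PHLDA1, EGR1, MCM6, CDT1, CCNA2, AURKB, ESRP2, CLDN4, ELF3, OVOL1, OVOL2, GRHL1, GRHL2, KRT8, KRT20, FN1, SNAI1, SNAI2, TWIST1, COL4A5, COL6A1, COL6A2, COL17A1, THBS1, FBN1, CCN1, TGFB2, FGFR1, HBEGF, AREG, TGFA, ABCA3, MUC4, CD24, PDCD1LG2, GBP2, IFIT2, TNFSF10, HK2 and RBL2, and the further fibroblast markers and genes with motif letters. Counts of genes called with 1 library left out, DESeq2 1.42.0, limma 3.58.1 on the deposited log2 TPM, other scalings, filters and depths, and the replicate number as a block were the alternatives. Code was tested on simulated data.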

Additional observations from a re-analysis of the deposited data

Results flagged for a closer look

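The change from acute to DTP differed between HCC827 and the mean of the other 3 lines for 3403 of 16168 genes, by the edgeR test of the difference itself over 24 libraries. Among the genes described, AXL (3.94), ZEB1 (2.56), COL5A1 (2.76), COL6A2 (2.74), SPARC (3.04), IGFN1 (7.74) and KIF26A (7.6) had the larger log2 fold change in HCC827. CD47 (-2.0), PDZK1IP1 (-4.2), SULT1E1 (-4.84) and UBD (-4.17) had the smaller one, all values being differences in log2 fold change. SULT1E1 had 190 reads over the acute and 60 over the DTP libraries of HCC827, 22 and 388 in PC9, 4 and 26 in H1975 and 141 and 1251 in HCC2935, not scaled to depth. No group of 3 libraries was tested for a single value that stands apart.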

How the results depend on the processing

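At an adjusted p under 0.01 in place of 0.05, 1771 genes differed between DTP and acute, 2828 between DTP and DMSO, 3564 between acute and DMSO and 1817 between HCC827 and the other lines. With 1 library left out these counts ran from 2328 to 5237, from 3816 to 4819, from 4192 to 5768 and from 2432 to 3894. For DTP against acute they were 2328, 2442 and 2576 without acute replicate 1, 2 and 3, so that each acute library moved the count by over 1.5 times, where fewer samples enter the fit. With the replicate number as a block (replicate block) the counts were 3623, 4460, 4695 and 3071. Deviations of same-numbered DTP and acute libraries correlated at -0.0156, -0.0198 and 0.0748, so that they share only a number, and not every library correlated best with its own number. Counts for DTP against acute under the other alternatives lay between 3868 (at least 10 counts in every library) and 4806 (DESeq2), and the fits without HCC827 DTP replicate 2 or 3 gave 3163 and 2821. Library size scaling moved the median of acute against DMSO to 0.10 and log2 TPM that of the difference between lines to -0.14, from 0.01 in both. Of 112 genes called between DTP and acute whose change is given with a test, 108 were called in every fit with 1 library left out, 109 with the block, 112 by DESeq2, 111 by limma on log2 TPM and 100 at 0.01. None of the 112 changed direction in any of these alternatives. Of the 112, MKI67, CCN2, NKX2-1 and ABCB1 were the 4 that lost the call without some library. Genes named above without such a test lost it too, among them KRT18, KRT19, MUC5B, COL4A5, COL17A1, AMOTL2 and SULT1E1. The 112 include genes chosen for large changes or after their values were seen, so that the 108 do not stand for all genes called. At 3 libraries a group, and with under 60 reads in acute libraries for ETV1, SPRY4, KIT, CCL2 and ALDH1A1, large fold changes rest on small counts.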
